A study of Mus musculus with 6 samples.

Results

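High-fat feeding was compared with a control diet in gastrocnemius, the large calf muscle, of male C57BL/6J mice. The comparison used 4 of the 6 expression arrays of the study, chosen by their titles. The Control pools at 4 h and 24 h of fasting were mice fed D12450B, with 10 kcal% fat. The HF pools at 4 h and 24 h were mice fed D12492, with 60 kcal% fat. Both diets began at 6 weeks of age and lasted 15 weeks, whereas the labels give an age of 21 months for every pool. The remaining pools, HF+SFC+ALA at 4 h and 24 h, ate the high-fat diet plus the iron salt sodium ferrous citrate (SFC) at 0.023% and 0.2% 5-aminolevulinic acid phosphate (ALA, a heme precursor) by weight. These pools entered the statistical fits and, for the fasting response, stand with HF as high-fat pools. Each array held RNA pooled within its group, and how many animals went into each is not stated in the labels used. Each diet and fasting time thus had 1 pool, so no spread between like pools was measured. The p-values for diet rest on how far diet differences, HF+SFC+ALA included, changed between fasting times, and on the spread of other genes. That spread may be partly technical, and a true change of a diet's effect with fasting counts in it. The diets had the same share of protein, and fat replaced carbohydrate, so more fat and less carbohydrate cannot be told apart.

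Skeletal muscle burns both glucose and fatty acids. Long feeding with excess fat enlarges the fat depots, including adipocytes that lie between muscle fibres and beneath the fascia, and is known to blunt the action of insulin on muscle. In the fasted state, falling insulin lets FoxO transcription factors switch on genes of protein breakdown and autophagy, and muscle turns from glucose to fatty acids. Muscle samples also hold connective tissue, tendon, vessels, nerve and resident macrophages, each with its own transcripts.

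The genes of skeletal muscle were bright in all 4 pools. Acta1, skeletal actin, gave signals of 44954 and 47421 in the Control pools at 4 h and 24 h and 41541 and 47742 in the HF pools. Ckm, muscle creatine kinase, gave 45640, 47593, 37327 and 45751 in the same order. All 17 listed genes of muscle identity were above the signal filter. Whether signals this bright still follow transcript level was not tested. Median signals of the arrays ran from 62.98 to 69.51. For the actin control probe sets the 3' to 5' ratio was 1.52 in the HF pool at 4 h and 1.08 to 1.22 in the other 5, and its part in the results was not tested. In a pool, fewer cells of a type and less RNA per cell cannot be told apart.

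Of 11526 genes tested, 65 rose and 37 fell with high-fat feeding at an adjusted p of 0.05 in limma, which is 0.564% and 0.321% of the genes (0.885% either way). All 102 had the same sign at both fasting times, which the test favours: a difference that changes with fasting time adds to the residual spread. The calls depend on the model: no gene passed without the filter on dim genes (1993 at an unadjusted p under 0.05), without the trend of spread with signal (1348) or without fasting time in the model (982), against 1692 at that p as fitted. With all probe sets of a gene averaged, 1 gene passed, Lep. Differences are HF minus Control on the log2 scale, and the ± sign precedes the fit's standard error (6 pools). Without a test, 180 genes (1.56%) were at least 1.5-fold higher and 76 (0.659%) at least 1.5-fold lower in HF at both fasting times, and 37 and 10 were at least 2-fold apart. Another 110 genes were at least 1.5-fold apart in opposite directions. Higher at both times without regard to size were 3385 genes (29.4%), and lower at both 3524 (30.6%). The counts of list members below can be read beside these shares. Where the pools of the 2 diets are said not to overlap, the genes were picked partly by the same values, which favours that order. The share of all genes with such an order was not counted.

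The genes apart without passing were mostly dim. Of the 256 genes that differed at least 1.5-fold in 1 direction at both times, 67 passed, with a median signal of 915.7, and 189 did not, with a median of 106. Among the 4033 genes with a mean signal over 1000, 20 were at least 1.5-fold higher and 15 at least 1.5-fold lower at both times, and 2 went in opposite directions. Single pairs held more differences: 683 genes were at least 1.5-fold higher and 414 lower at 4 h, and 975 and 539 at 24 h.

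**Figure D1:**
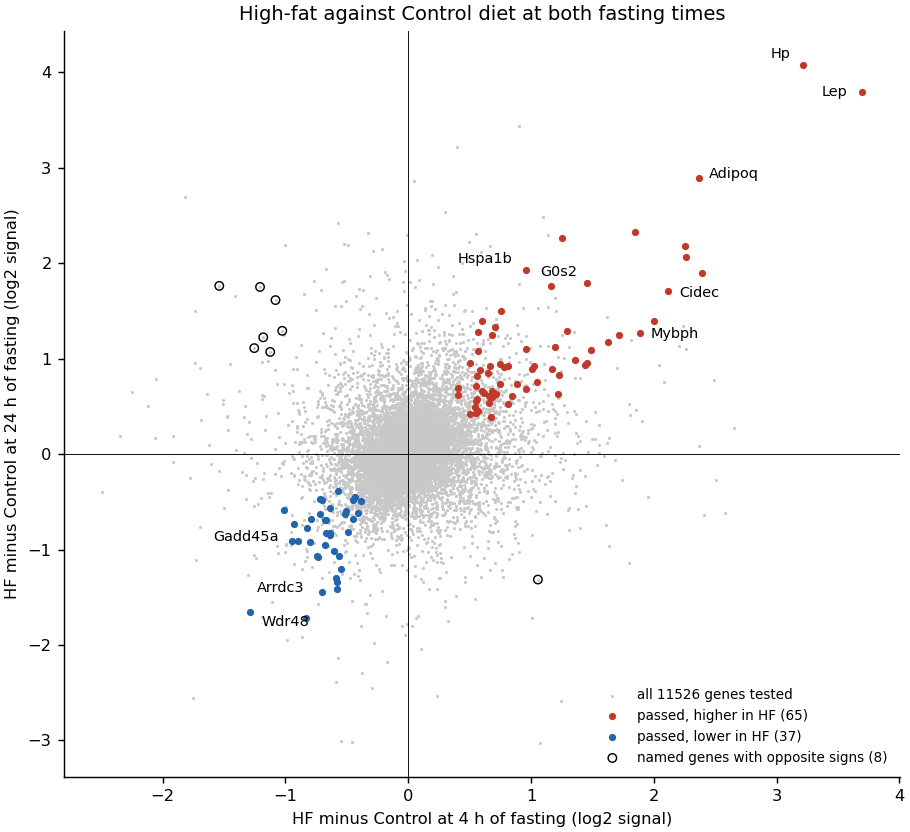
Difference between the HF and Control pools (log2 signal) at 4 h of fasting (horizontal axis) and at 24 h (vertical axis) for the 11526 genes tested, with the 65 genes that rose in red, the 37 that fell in blue and 8 genes with opposite signs as open circles. Lep, Hp and Adipoq lie farthest to the upper right, at 3.69 and 3.79, 3.21 and 4.08, and 2.36 and 2.89.

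Several hormones and lipid droplet proteins of adipocytes rose. Lep, the satiety hormone leptin, gave signals of 45.8 and 19.5 in the Control pools at 4 h and 24 h and 592 and 366 in the HF pools. The second Control value lies under the floor of 26.4 that was set for dim signals, so Lep was 12.9-fold higher at 4 h and at least 13.9-fold higher at 24 h, against the floor (3.74 ± 0.30, adjusted p = 0.00275). Adipoq, the insulin-sensitising hormone adiponectin, gave 901 and 577 in Control and 4637 and 4280 in HF, or 5.15-fold and 7.42-fold higher (2.63 ± 0.21, adjusted p = 0.00275). Cidec, which lets lipid droplets fuse and grow, gave 159 and 97.5 in Control and 689 and 318 in HF (1.91 ± 0.22, adjusted p = 0.00741). For each of the 3 genes both HF pools lay above both Control pools. The same order held for Cdo1, cysteine dioxygenase, at 171 and 115 in Control and 685 and 303 in HF (1.70 ± 0.24, adjusted p = 0.0158). G0s2, which blocks the main triglyceride lipase, also rose, from 466 and 336 to 1276 and 1166 (1.62 ± 0.17, adjusted p = 0.00652). Lep, Adipoq, Cidec and G0s2 passed in all 6 fits that left out 1 pool. Cdo1 lost its call once the HF pool at 4 h was left out (adjusted p = 0.0526) or at 24 h (adjusted p = 0.0574).

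Not every adipocyte gene rose. Of 20 adipocyte markers 16 were tested, 4 rose (Lep, Adipoq, Cidec and Cdo1) and 12 did not pass. The median over the 16 was 0.52 at 4 h and 0.38 at 24 h, beside -0.01 and 0.01 over all genes tested. Slc36a2, an amino acid transporter, stood at 0.99 and 0.97, Cidea, a lipid droplet protein, had a fitted difference of 0.88, and Adig, adipogenin, stood at 1.03 and 0.49. Retn, the hormone resistin, gave 207 and 23.6 in Control and 386 and 287 in HF. Its difference was 0.90 at 4 h and at least 3.44 at 24 h without passing (adjusted p = 0.0896). Brighter markers that muscle fibres or vessels also express lay closer to 0. Fabp4, a fatty acid carrier, gave 21626 and 26207 in Control and 26497 and 31773 in HF, a difference of 0.29 and 0.28 (adjusted p = 0.162). Car3, carbonic anhydrase 3, differed by 0.12 and 0.11, and Thrsp, a regulator of lipogenesis, by 0.05 at both times. Pparg, the master factor of adipocytes, and Lipe, hormone-sensitive lipase, differed in opposite ways, at 0.23 and -0.55 and at 0.28 and -0.53. The summed signal of the 16 markers was 111106 and 122309 in Control and 120961 and 139874 in HF, mostly from Car3, Lpl and Fabp4. The part of adipocytes beside the fibres in these differences was not tested.

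The promoters of the 2 adipocyte genes Lep and Cidec are shown because both hold a match to the recognition letters of C/EBP factors, which drive adipocyte genes. The sequences are the 250 bases before the RefSeq start of each gene on GRCm38.p6, 5′ to 3′ along the gene, with the match TTGCNNAA (either strand) in capitals. Lep lies on the plus strand at chr6:29059971-29060220 and Cidec on the minus strand at chr6:113434765-113435014.
Lep: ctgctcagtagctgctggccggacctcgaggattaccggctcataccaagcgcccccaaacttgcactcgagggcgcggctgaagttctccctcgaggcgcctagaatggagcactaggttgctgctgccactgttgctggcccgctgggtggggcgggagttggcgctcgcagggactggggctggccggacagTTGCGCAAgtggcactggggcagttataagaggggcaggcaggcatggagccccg
Cidec: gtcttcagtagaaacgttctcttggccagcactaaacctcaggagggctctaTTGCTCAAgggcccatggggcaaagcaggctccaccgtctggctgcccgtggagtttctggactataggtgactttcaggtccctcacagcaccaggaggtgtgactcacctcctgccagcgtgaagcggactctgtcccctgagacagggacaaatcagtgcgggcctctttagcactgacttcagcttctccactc
Over windows of 300 bases that reach 50 bases past the start, 8 of the 42 genes that rose and have a promoter in the table held this match (19.0%): Anxa1, Cidec, Dpt, Ech1, Fmod, Lep, Mest and Pltp. The share was 9.9% of the 9337 tested genes with a promoter, 12.2% of all 27025 genes in the table and 10.5% of the 133 such genes at least 1.5-fold higher at both times. Adipoq and Cdo1, the other adipocyte markers that rose, and G0s2 are not among the 8. Genes that rose without a promoter in the table could not be searched. A match describes letters and does not show that a factor binds there.

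Few other genes of lipid handling passed. Of 18 listed genes of lipid droplets and lipolysis, 2 rose (Cidec and G0s2), none fell and 16 did not pass, and the median was 0.07 at 4 h and 0.03 at 24 h. Plin2, which coats lipid droplets, differed by -0.45 at 4 h and 0.49 at 24 h. Of 21 tested genes of triglyceride and fatty acid synthesis, Dgat2, which makes triglyceride in its last step, rose from 1253 and 1911 to 1834 and 2814 (0.55 ± 0.09, adjusted p = 0.0329). Lpin1, which makes diacylglycerol, fell from 20601 and 21113 to 15768 and 15043 (-0.44 ± 0.08, adjusted p = 0.0346). Both HF pools lay below both Control pools for Lpin1. Agpat2, which makes phosphatidic acid, stood at 0.77 and 0.61 (adjusted p = 0.0995), and the desaturase Scd1 at 0.41 and 0.98 (adjusted p = 0.169). Leaving out the HF pool at 24 h gave adjusted p = 0.152 for Dgat2 and 0.11 for Lpin1, and leaving out either HF+SFC+ALA pool 0.0794 and 0.0819 for Dgat2 and 0.069 and 0.0696 for Lpin1. Lpin1 also did not pass without the Control pool at 24 h (adjusted p = 0.162).

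Most fatty acid oxidation genes differed little. Of 24 genes tested, 15 were higher and 4 lower at both times (29.4% and 30.6% of all genes). None of the 24 rose, 1 fell and 23 did not pass, with medians of 0.08 and 0.23. Decr1, which handles unsaturated fatty acids, stood at 0.41 and 0.67 (0.54 ± 0.10, adjusted p = 0.0537). Pex11a, a peroxisome protein, stood at 0.36 and 0.46 and Acadl, long-chain acyl-CoA dehydrogenase, at 0.29 and 0.36. Against these, Ehhadh, a peroxisomal enzyme, stood at -0.68 and -0.57 (adjusted p = 0.132). Acot2, which splits acyl-CoA in mitochondria, fell from 3642 and 7711 to 2241 and 5540 (-0.59 ± 0.10, adjusted p = 0.0305). Acot2 lost its call once the HF pool at 4 h was left out (adjusted p = 0.0579) or without the HF+SFC+ALA pool at 24 h (adjusted p = 0.0526). Ech1, a dienoyl-CoA isomerase of the same pathway that stands in no list and was chosen after its values were seen, rose from 10056 and 12749 to 14826 and 22450 (0.69 ± 0.12, adjusted p = 0.0368), and lost its call once the HF pool at 24 h was left out (adjusted p = 0.135). The 16 tested targets of PPAR receptors and fuel switch genes went the other way at 4 h, with 14 lower and a median of -0.29, and were split at 24 h, with 8 higher, 8 lower and a median of -0.05. Apart from Acot2 none of them passed. Ucp3, a mitochondrial carrier that fasting induces, gave 5431 and 5234 in Control and 3409 and 4279 in HF (-0.48 ± 0.10, adjusted p = 0.0695).

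**Figure D2:**
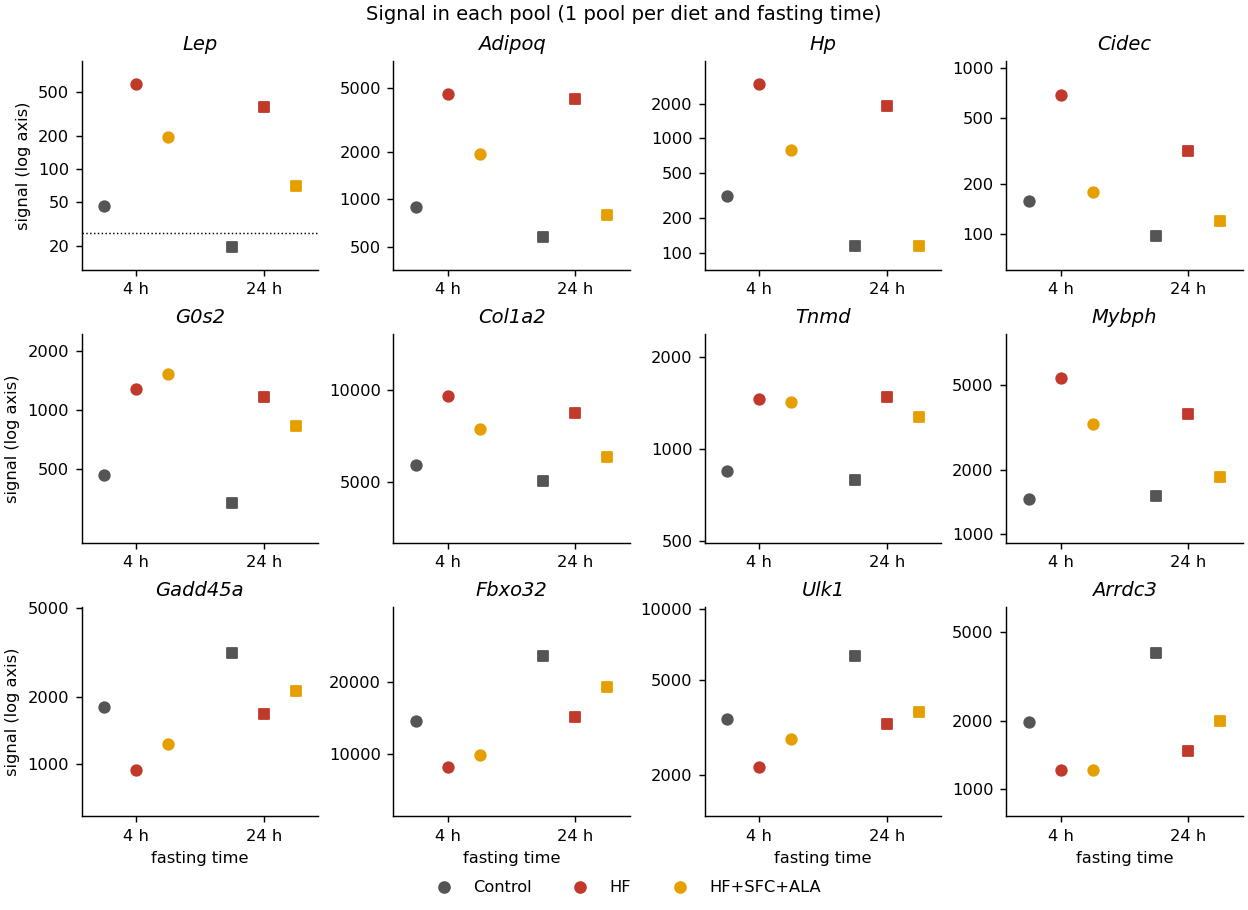
Array signal (log axis) of 12 genes in each pool, with circles for 4 h and squares for 24 h of fasting, 1 pool per point and no error bar; the dotted line in the Lep panel is the floor of 26.4. Both HF pools lie above both Control pools for Lep, Adipoq, Hp, Cidec, G0s2, Col1a2, Tnmd and Mybph, while Gadd45a, Fbxo32, Ulk1 and Arrdc3 are lower in HF than in Control at each fasting time.

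Collagens stood higher with high-fat feeding almost throughout the list. Of 18 collagen genes, all tested, 17 were higher in HF at both times (29.4% of all genes), 6 rose (0.564% of all), none fell and 12 did not pass. The median difference was 0.34 at 4 h and 0.75 at 24 h. Col1a2, a chain of the main fibril collagen, gave 5695 and 5055 in Control and 9557 and 8416 in HF (0.74 ± 0.08, adjusted p = 0.00652). Col1a1, its partner chain, gave 968 and 689 in Control and 1883 and 1108 in HF (0.82 ± 0.11, adjusted p = 0.0158). Col3a1 rose from 4759 and 2651 to 7051 and 6456, by 0.57 at 4 h and 1.28 at 24 h (0.93 ± 0.14, adjusted p = 0.0229). In both Col1a1 and Col1a2 the pools of the 2 diets did not overlap. Col12a1, which coats fibrils, stood at 1.20 and 1.12, Col5a2 at 0.75 and 0.95 and Col8a1 at 0.76 and 1.51, and each rose. The other probe set of Col12a1 above the filter did not move the same way at both times. Of the others, Col11a1 stood at 0.75 and 0.84, Col18a1 at 0.41 and 0.61, Col6a2 at 0.38 and 0.86 (adjusted p = 0.0537) and Col5a1 at 0.30 and 1.12. Col1a1 and Col1a2 passed in all 6 fits that left out 1 pool. Without the HF pool at 24 h the others gave adjusted p = 0.055 (Col12a1), 0.051 (Col3a1), 0.119 (Col5a2) and 0.218 (Col8a1). Col5a2 also failed without the HF+SFC+ALA pool at 4 h (0.0532), and Col8a1 without either HF+SFC+ALA pool (0.0824 and 0.0819) or after quantile normalization (0.0501).

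Genes of tendon and small proteoglycans stood higher in the same pools. Of 18 tested, 16 were higher at both times (29.4% of all genes), 6 rose (0.564% of all) and none fell, with medians of 0.40 and 0.63. Tnmd, tenomodulin, the membrane protein that marks tendon cells, gave 850 and 789 in Control and 1458 and 1481 in HF (0.84 ± 0.10, adjusted p = 0.0108). Fmod, fibromodulin, which binds collagen fibrils, gave 5106 and 6470 in Control and 7527 and 9637 in HF (0.57 ± 0.08, adjusted p = 0.0164), and all 5 of its other probe sets above the filter moved the same way. Prg4, the joint lubricant lubricin, rose by 0.75 ± 0.12, the cartilage protein Cilp by 0.67 ± 0.10, Ogn, osteoglycin, by 0.67 ± 0.10 and Thbs4, a thrombospondin of muscle and tendon junctions, by 0.51 ± 0.09. Bgn, biglycan, stood at 0.48 and 0.71, Lum, lumican, at 0.44 and 1.03, Prelp at 0.40 and 0.64 and Kera, keratocan, at 0.38 and 0.94, without passing. The pools of the 2 diets did not overlap for Tnmd or for Fmod. None of the 6 passed without the HF pool at 24 h, where adjusted p was 0.053 for Tnmd, 0.0648 for Fmod, 0.0574 for Ogn, 0.0822 for Cilp, 0.154 for Prg4 and 0.156 for Thbs4. Without the HF+SFC+ALA pool at 4 h or 24 h, Prg4 (0.056 and 0.0577), Ogn (0.0502 and 0.0501) and Thbs4 (0.0809 and 0.0801) did not pass either.

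The rest of the matrix list showed smaller differences. Of 32 tested genes of matrix assembly and turnover, 22 were higher and 3 lower at both times (29.4% and 30.6% of all genes). Of the 32, 1 rose (0.564% of all) and 31 did not pass, with medians of 0.20 and 0.30. Sparc, a secreted protein that binds collagen, gave 7975 and 6921 in Control and 12554 and 10570 in HF (0.63 ± 0.08, adjusted p = 0.0125) and passed in all 6 fits without 1 pool. When all probe sets of Sparc were averaged, dim ones included, its difference turned to -0.27. Postn, periostin, stood at 0.39 and 1.70 and Lox, which cross-links collagen, at 0.85 and 0.31, without passing. Among 16 fibroblast markers 11 were higher and none lower at both times (29.4% and 30.6% of all genes), and 2 rose (0.564% of all). S100a4 rose from 713 and 492 to 1145 and 1165 (0.96 ± 0.14, adjusted p = 0.018) and Dpt, dermatopontin, by 0.53 ± 0.10 (adjusted p = 0.0392). S100a4 lost its call without the HF pool at 24 h (0.104) or the HF+SFC+ALA pool at 4 h (0.0504), and Dpt without any 1 of the HF and HF+SFC+ALA pools (0.051 to 0.102). Dcn and Gsn, abundant fibroblast transcripts, differed by 0.06 and 0.04 and by 0.18 and 0.02, and Pdgfra, a receptor that marks fibroblasts and their progenitors, by 0.04 and 0.38. Aspn, Abi3bp, Ccdc80 and Fstl1, all secreted proteins, rose by 0.73 to 0.95, and all but Fstl1, of the myokine list, were chosen after their values were seen. Each of the 4 failed once the HF pool at 24 h was left out (adjusted p = 0.0851 to 0.197), and Abi3bp also without either HF+SFC+ALA pool (0.0894 and 0.0895).

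Of the lists meant for cells or tissue other than muscle fibres, 7 held 20 of the 65 genes that rose and none of those that fell. These 7 lists (adipocyte, collagen, matrix, tendon, fibroblast, macrophage, and smooth muscle and pericyte) named 134 tested genes, of which 102 were higher and 7 lower at both times. Of all genes tested 0.564% rose, 29.4% were higher and 30.6% lower at both times. Some members are not particular to such tissue: Des, for example, is also in the muscle identity list. The 7 lists are a choice among such lists: of 20 tested endothelial genes 7 were higher and 2 lower at both times, of 10 Schwann cell genes 6 and 2, and none of these passed. The summed signal of the fibroblast markers was 61553 and 64845 in Control and 68854 and 70329 in HF, and that of the tendon list 37146 and 41084 in Control and 46881 and 52936 in HF. The part of a changed mix of tissue in these differences was not tested.

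Macrophage markers were higher without passing. Of 21 tested, 18 were higher and none lower at both times (29.4% and 30.6% of all genes), and none rose or fell. The median of the list was 0.37 at 4 h and 0.79 at 24 h. Mrc1, the mannose receptor of resident macrophages, gave 201 and 191 in Control and 370 and 400 in HF (0.97 ± 0.20, adjusted p = 0.0714). C1qb, a complement chain made by macrophages, gave 242 and 259 in Control and 453 and 463 in HF (0.87 ± 0.20, adjusted p = 0.099). In both genes the HF pools lay above the Control pools at both times. The summed signal of the 21 markers was 7974 and 7914 in Control and 10594 and 11571 in HF. Among 13 chemokine and inflammation genes 8 were higher and 1 lower at both times and none passed. Saa3, an acute phase protein of adipose tissue and macrophages, led them with 28.9 and 61.1 in Control and 138 and 131 in HF (adjusted p = 0.103). Socs3, a brake on cytokine signalling, differed by 1.46 at 4 h and 0.03 at 24 h.

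Hp, haptoglobin, which binds free hemoglobin and is made by liver and adipose tissue, gave 317 and 114 in Control and 2940.3 and 1921 in HF, 9.29-fold and 16.9-fold higher (3.65 ± 0.38, adjusted p = 0.00652). Lrg1, a plasma glycoprotein, rose by 0.81 ± 0.12 and Lbp, which binds bacterial lipopolysaccharide, by 1.03 ± 0.15, both chosen after their values were seen. Of 27 tested genes of heme and iron, Hp was the only one to pass. Alad, an enzyme of heme synthesis, stood at 0.80 and 0.46 (adjusted p = 0.067), and Hmox1, which degrades heme, at -0.69 and -0.40 (adjusted p = 0.274). Ifi27l2a, an interferon-induced gene, rose from 659 and 371 to 1476 and 1255 (1.46 ± 0.17, adjusted p = 0.00741), while none of the other 18 tested interferon-stimulated genes passed and the list's median was 0.12 at 4 h and 0.15 at 24 h. Hp and Ifi27l2a passed without any 1 pool, whereas Lrg1 (0.062) and Lbp (0.0574) failed without the HF pool at 24 h.

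Among the other genes with the largest rises, Tmem45b gave 182 and 113 in Control and 871 and 472 in HF (2.16 ± 0.24, adjusted p = 0.00652). BC048679 gave 398 and 858 in Control and 2086 and 3196 in HF (2.14 ± 0.22, adjusted p = 0.00652). Mybph, a myosin-binding protein of fast fibres, gave 1460 and 1508 in Control and 5407 and 3645 in HF (1.58 ± 0.17, adjusted p = 0.00652). It was the only one of 17 muscle identity genes to pass, and the median of that list was -0.10 at 4 h and 0.01 at 24 h. Tm6sf1 rose 2.45-fold and 2.44-fold, from 389 and 472 to 952 and 1151 (1.29 ± 0.13, adjusted p = 0.00652). All 4 genes had both HF pools above both Control pools, an order favoured by their choice, and passed without any 1 pool. D930048N14Rik gave 17.0 and 25.4 in Control, both under the floor, and 126 and 120 in HF, at least 4.77-fold and at least 4.54-fold higher (adjusted p = 0.0278). Acp5, an acid phosphatase of osteoclasts and macrophages, gave 56.2 and 23.5 in Control and 202 and 132 in HF (2.08 ± 0.37, adjusted p = 0.0368), the second Control value being under the floor. Serpinb1a, a protease inhibitor, rose by 1.76 ± 0.30, Cd1d1, which presents lipid antigens, by 1.48 ± 0.21 and Sncg, gamma-synuclein, by 1.40 ± 0.20. These 5 genes lost the call without the HF pool at 24 h, with adjusted p from 0.0624 for Cd1d1 to 0.223 for Serpinb1a. D930048N14Rik and Acp5 also failed with HF at 4 h left out (0.0925 and 0.101) and, with Serpinb1a, without either HF+SFC+ALA pool (0.0685 to 0.0793), and Cd1d1 failed without the HF pool at 4 h (0.0544). Acp5 also failed after quantile normalization (0.053).

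Genes of the fasting and atrophy programme stood lower with high-fat feeding. Of 26 tested FoxO factors and atrophy genes, 16 were lower and 4 higher at both times (30.6% and 29.4% of all genes). Of the 26, 3 fell (0.321% of all genes), none rose and 23 did not pass, with medians of -0.15 at 4 h and -0.34 at 24 h. Gadd45a, a growth arrest gene that FoxO and ATF4 induce in wasting muscle, gave 1812 and 3167 in Control and 941 and 1691 in HF, 1.92-fold and 1.87-fold lower (-0.93 ± 0.09, adjusted p = 0.00652). Fbxo32, the muscle ubiquitin ligase atrogin-1, gave 13711 and 25513 in Control and 8834 and 14183 in HF (-0.74 ± 0.09, adjusted p = 0.00741). Ulk1, the kinase that starts autophagy, gave 3453 and 6345 in Control and 2154 and 3277 in HF (-0.82 ± 0.12, adjusted p = 0.0164). The other probe set of Ulk1 above the filter moved by only -0.16 and -0.14, and with all its probe sets averaged the difference was -0.48. In these 3 genes the HF pool was lower at each fasting time, while the HF pool at 24 h of Fbxo32 and the Control pool at 4 h lay close together (14183 and 13711). Foxo3 itself stood at -0.48 and -0.44 (adjusted p = 0.088), Klf15 at -0.49 and -0.42 and Eif4ebp1, a brake on translation, at -0.41 and -1.28 (adjusted p = 0.0537). Trim63, the other muscle ubiquitin ligase, stood at -0.16 and -0.63 (adjusted p = 0.158), and Mt2, a metallothionein of the same list, at 0.70 and 0.55. Gadd45a and Fbxo32 passed in all 6 fits without 1 pool, and Ulk1 failed once the HF pool at 24 h was left out (adjusted p = 0.0648).

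Regulators of growth arrest stood lower as well. Of 18 tested, 11 were lower and 1 higher at both times (30.6% and 29.4% of all genes), and 3 fell (0.321% of all). Besides Gadd45a these were its relative Gadd45g, from 2394 and 3322 to 1620 and 1587 (-0.81 ± 0.13, adjusted p = 0.0243), and Ppp1r15a, which reverses the block of translation after stress, from 1114 and 2270 to 743 and 926 (-0.94 ± 0.16, adjusted p = 0.0346). Gadd45g and Ppp1r15a gave adjusted p = 0.088 and 0.128 when HF at 24 h was left out, and leaving out HF+SFC+ALA at 24 h gave them 0.0501 and 0.0696, and Ppp1r15a 0.0668 without the HF+SFC+ALA pool at 4 h and 0.0548 after quantile normalization. Cdkn1b, a cell cycle inhibitor, stood at -0.42 and -0.37, Ddit4, which inhibits mTORC1, at -0.34 and -1.67, Btg2 at -0.24 and -0.87 and Cdkn1a at -0.23 and -0.68. None of these 4 passed (adjusted p = 0.0811 for Cdkn1b and 0.103 for Ddit4). Of the 7 tested arrestins and Txnip, the α-arrestins Arrdc2 and Arrdc3 fell. Arrdc2 gave 2084 and 2067 in Control and 1194 and 1092 in HF (-0.86 ± 0.10, adjusted p = 0.00741), and Arrdc3, which limits β-adrenergic receptors, 1975 and 4010 in Control and 1211 and 1469 in HF (-1.08 ± 0.15, adjusted p = 0.0164). Txnip, their relative that restrains glucose uptake, stood at -0.40 and -0.27 (adjusted p = 0.103), and Arrdc4 at 0.32 and 0.28. Arrdc2 passed without any 1 pool and Arrdc3 failed once the HF pool at 24 h was left out (adjusted p = 0.051).

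Pim3 and Pim1, kinases that promote growth and survival, both fell. Pim3 gave 3650 and 5025 in Control and 2113 and 3128 in HF (-0.74 ± 0.10, adjusted p = 0.0158). Pim1 gave 709 and 996 in Control and 400 and 583 in HF (-0.80 ± 0.13, adjusted p = 0.0244). Jun, an AP-1 factor, fell from 4053 and 6773 to 2831 and 4380 (-0.57 ± 0.08, adjusted p = 0.0176), whereas Dusp1, a phosphatase of MAP kinases in the same list of immediate early genes, rose from 2977 and 2159 to 4787 and 3407 (0.67 ± 0.08, adjusted p = 0.00982). The other probe set of Jun above the filter stood at -0.05 at 4 h and -0.56 at 24 h. Of the other 22 tested immediate early genes none passed. Nr4a3 stood at 0.52 and 1.05 and Myc at -0.44 and -1.05. Pim1 failed without the HF pool at 24 h (0.0768) or either HF+SFC+ALA pool (0.0618 and 0.0666), Jun without the HF pool at 24 h (0.0851), and Pim3 and Dusp1 passed without any 1 pool.

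Promoter windows of 3 genes that fell are shown because they hold GTAAACA, letters that FoxO factors recognise (either strand, in capitals). Each is 100 bases of the RefSeq promoter on the plus strand of GRCm38.p6, 5′ to 3′: Pim1 at chr17:29492965-29493064, Tmem140 at chr6:34862980-34863079 and Cacfd1 at chr2:27009773-27009872.
Pim1: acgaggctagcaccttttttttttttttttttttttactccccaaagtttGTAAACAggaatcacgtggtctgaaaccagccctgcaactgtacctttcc
Tmem140: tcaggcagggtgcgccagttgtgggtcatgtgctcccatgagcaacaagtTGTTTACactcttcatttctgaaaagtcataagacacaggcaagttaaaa
Cacfd1: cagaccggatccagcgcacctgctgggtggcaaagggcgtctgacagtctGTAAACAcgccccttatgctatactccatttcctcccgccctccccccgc
With Wbp1l, 4 of the 32 genes that fell and have a promoter held the match (12.5%), against 3.18% of tested genes, 4.05% of all genes in the table and 6.45% of the 62 genes at least 1.5-fold lower at both times. Among the 42 that rose, 1 held it (Emp1). Neither Gadd45a nor Fbxo32 nor Ulk1 is among the 4. The 3 other motifs searched were the E-box CACGTG, the TATA box TATAAA and a heat shock element. They were found in 7.14%, 28.6% and 0 of the genes that rose, in 12.5%, 15.6% and 0 of those that fell, and in 12.0%, 9.37% and 0.632% of tested genes.

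Tmem140, a membrane protein, fell from 3623 and 5378 to 1906 and 3229 (-0.83 ± 0.11, adjusted p = 0.0129), although its other probe set above the filter did not move the same way at both times. By the probe set tested for each gene, Wdr48, a partner of deubiquitinases, had the largest fall of the 37 genes. Wdr48 went from 697 and 636 to 286 and 202 (-1.47 ± 0.16, adjusted p = 0.00652). Of its 2 other probe sets above the filter 1 moved the same way, by -0.49 and -0.15, and 1 by -0.10 and 0.28. Abcf3 fell by 0.90 ± 0.11 on the log2 scale, while its other probe set did not move the same way at both times. Syne1, which anchors nuclei in muscle fibres, fell from 2065 and 2691 to 1240 and 1274 (-0.91 ± 0.11, adjusted p = 0.00982). The 2410006H16Rik transcript fell from 2177 and 4583 to 1221 and 1396 (-1.27 ± 0.17, adjusted p = 0.014). These 5 genes passed without any 1 pool. Stab2, a scavenger receptor, Cbr2, a carbonyl reductase, and Cacfd1 fell by 0.68 to 0.75 on the log2 scale and lost their calls once the HF pool at 24 h was left out (adjusted p = 0.101, 0.06 and 0.062). Stab2 also failed without the HF+SFC+ALA pool at 4 h (0.0618) or 24 h (0.0629). With all probe sets of a gene averaged, dim ones included, the difference was -0.11 for Cacfd1, -0.12 for Abcf3 and -0.425 for Wdr48. It was -0.64 for Tmem140 and -0.66 for Syne1, and unchanged for Stab2, Cbr2 and 2410006H16Rik.

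In glucose metabolism 1 gene fell, Pfkfb3, whose product raises the activator of glycolysis fructose 2,6-bisphosphate. It fell from 5914 and 9104 to 3529 and 4335 (-0.91 ± 0.14, adjusted p = 0.0192), with each HF pool below both Control pools, and lost its call once the HF pool at 24 h was left out (adjusted p = 0.0659). None of the other 17 tested genes of glucose uptake and glycolysis passed. Slc2a3, a glucose transporter, stood at -0.31 and -0.60, Pfkm, muscle phosphofructokinase, at -0.34 and -0.23, and the basal transporter Slc2a1 at 0.24 at both times. Of 23 tested genes of insulin signalling none passed, and 10 were lower and 7 higher at both times. Of all genes, 30.6% were lower and 29.4% higher. The medians of the list were -0.02 and -0.06. Irs2, an insulin receptor substrate, stood at -0.48 and -0.55 (adjusted p = 0.128), Akt2, the kinase that insulin uses to move glucose transporters, at -0.32 and -0.47 (adjusted p = 0.0714), and Grb14, an inhibitor of the insulin receptor, at 0.19 and 1.33 (adjusted p = 0.19).

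Breakdown of branched-chain amino acids stood lower at 4 h. Of 23 tested genes 19 were lower at 4 h and 13 at 24 h, 12 at both times, with medians of -0.23 and -0.06, and none passed. Of all 11526 genes tested, 5972 were lower at 4 h, 5693 at 24 h and 3524 at both times. Ivd, isovaleryl-CoA dehydrogenase, gave 2261 and 2592 in Control and 1388 and 1872 in HF (-0.59 ± 0.12, adjusted p = 0.0714). Acadsb, which acts on the isoleucine branch, stood at -0.43 and -0.36, Bckdhb, a subunit of the branched-chain dehydrogenase, at -0.34 and -0.29, and Mccc1 at -0.41 and -0.24. Dbt, another subunit of that complex, stood at 0.09 and 0.22.

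**Figure D3:**
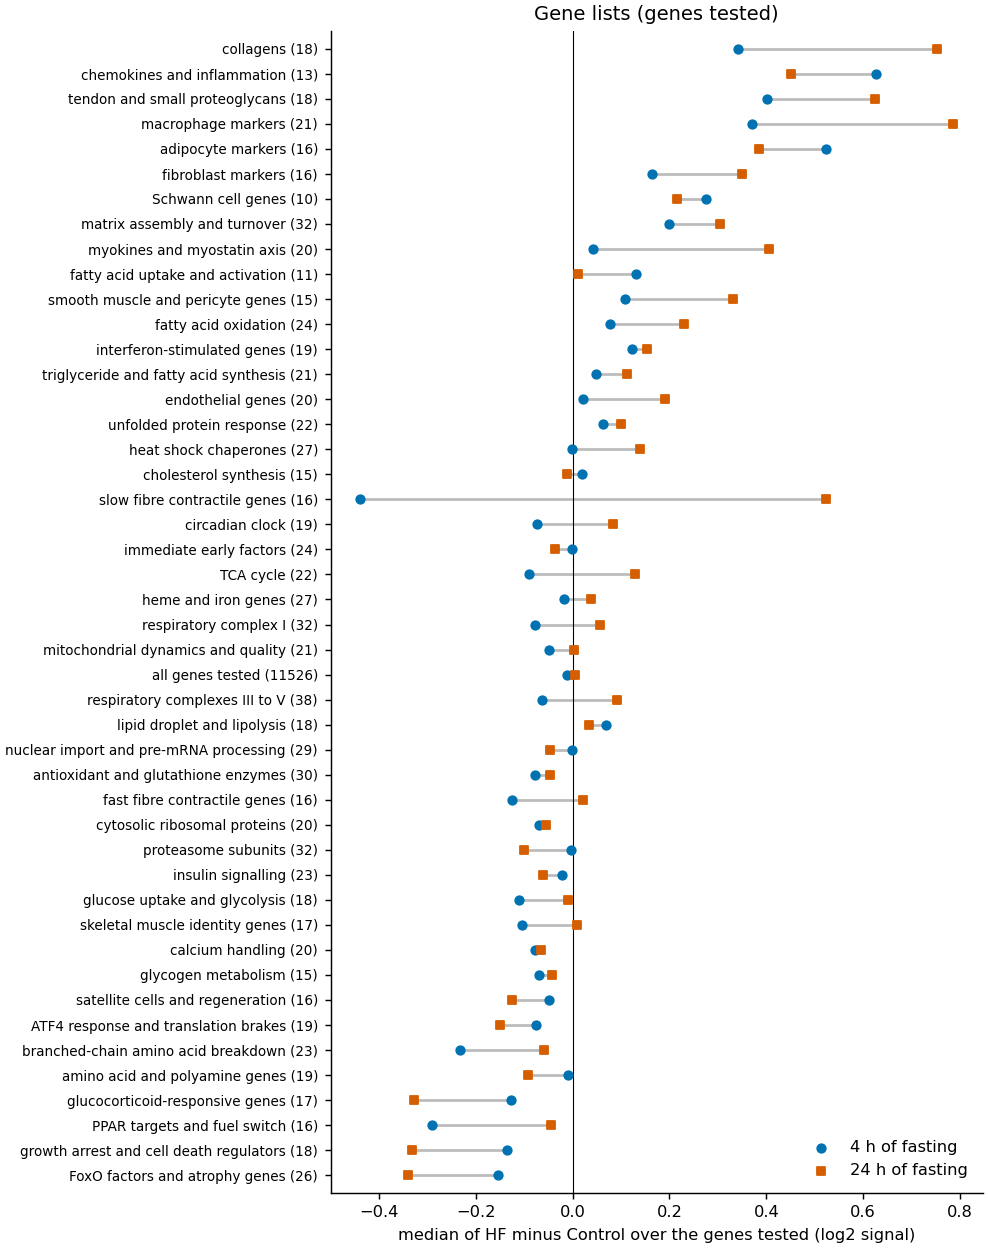
Median difference between HF and Control (log2 signal) over the tested genes of each list with at least 10 such genes, at 4 h (circles) and 24 h (squares); the number of genes tested is in brackets and lists share some genes. Collagens lie at 0.34 and 0.75 and FoxO and atrophy genes at -0.15 and -0.34, while slow fibre genes run from -0.44 at 4 h to 0.52 at 24 h.

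The contractile and mitochondrial lists differed in sign between the fasting times, the fast fibre and mitochondrial ones by little. Of 16 tested slow fibre genes 13 were lower in HF at 4 h and all 16 were higher at 24 h, with medians of -0.44 and 0.52. Myh7, the slow myosin heavy chain, gave 8784 in Control and 6100 in HF at 4 h, and 7813 and 10109 at 24 h. Tpm3, a slow tropomyosin, gave 8056 and 5274 at 4 h and 7327 and 8169 at 24 h, and Myl2, a slow myosin light chain, 17739 and 13121 and then 12545 and 18082. Casq2, a calcium store protein of slow fibres and heart, was higher at both times, at 0.62 and 0.62 (0.62 ± 0.13, adjusted p = 0.0636). None of the 16 passed, and over both times the median was 0.04. All 16 fast fibre genes were lower at 4 h and 11 were higher at 24 h, but by little (medians of -0.13 and 0.02). Complex I genes were lower in 29 of 32 at 4 h and higher in 27 of 32 at 24 h, with medians of -0.08 and 0.06. Complexes III to V (28 of 38 lower, then 32 of 38 higher) and the TCA cycle (16 of 22 lower, then 18 of 22 higher) did likewise, and 0 of these 92 genes passed. Of all 11526 genes tested, 5972 were lower at 4 h and 5833 higher at 24 h. How much muscle of each fibre type a pool held was not measured.

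Few stress genes passed the test. Of 27 tested chaperones of the heat shock response, Hspa1b, the inducible Hsp70, rose from 1087 and 741 to 2117 and 2828 (1.45 ± 0.18, adjusted p = 0.0116), with 2 other probe sets above the filter going the same way, and passed without any 1 pool. Hspa1a is a near-identical copy, so signals of the pair can be mixed, and stood at 0.42 and 1.26 (adjusted p = 0.0676). Dnajb4, a co-chaperone, stood at 0.34 and 0.52, and the median of the list was 0.00 at 4 h and 0.14 at 24 h. Of 22 unfolded protein response genes none passed. In the ATF4 response, none of the other 18 genes passed beside Ppp1r15a. Atf4 stood at -0.38 at both times (adjusted p = 0.0599), Psat1, of serine synthesis, at 0.72 and 1.36, and Asns, asparagine synthetase, at 0.42 and 0.66. Among 30 antioxidant genes Sod3, the extracellular superoxide dismutase, rose from 240 and 212 to 465 and 453 (1.03 ± 0.17, adjusted p = 0.0278). Gpx3, a secreted glutathione peroxidase, fell from 6501 and 9043 to 3951 and 5875 (-0.67 ± 0.11, adjusted p = 0.0285) and Gstm1, a glutathione transferase, from 4337 and 4787 to 2638 and 3464 (-0.59 ± 0.10, adjusted p = 0.0368). Of the 3 other probe sets of Gstm1 above the filter, 1 moved the same way at both times. Sod3 failed without any 1 of the HF and HF+SFC+ALA pools (0.0618 to 0.13), Gpx3 without the HF pool at 4 h (0.0641), and Gstm1 without that pool (0.0746) or either HF+SFC+ALA pool (0.0606 and 0.0612), or after quantile normalization (0.0543).

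Whether the response to the diet changed with fasting was tested with a term for the fasting response of both high-fat diets against that of Control, since HF alone leaves no residual spread. In limma 102 genes (0.885%) passed, 50 with a higher and 52 with a lower fasting response in the high-fat pools, and 16 also passed after quantile normalization. The genes described here are among those 16 and were chosen after their values were seen. Nmrk2, a muscle kinase of NAD synthesis, dropped from 6678 to 741 between 4 h and 24 h in Control, and from 3919 to 2597 in HF (difference of responses with HF+SFC+ALA included 2.31 ± 0.18, adjusted p = 2.76e-31). Depp1, a FoxO target, went from 1319 to 7087 in Control and from 958 to 878 in HF (-1.91 ± 0.19, adjusted p = 6.51e-18). Sesn1, a stress-induced inhibitor of mTORC1, went from 1359 to 4080 in Control and from 1876 to 1611 in HF (-1.58 ± 0.19, adjusted p = 3.06e-13). The 3 genes share that the Control pools at the 2 times lay farther apart than the HF pools. The 2 high-fat diets joined in the test did not always go alike. In HF+SFC+ALA Depp1 climbed from 1036 to 2301 and Sesn1 went from 1585 to 1851.5, unlike HF, while Nmrk2 fell from 4678.5 to 2149. Such a gap between the high-fat diets is the only residual spread in this fit. Depp1 had a log2 fasting response of -0.13 in HF but 1.15 in HF+SFC+ALA, much farther apart than its ± 0.19. The ± and p-values above come almost wholly from other genes of like signal and do not measure each gene's own spread. None of the 3 genes passed without the intensity trend.

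For Csrp3 and Ankrd2, stretch-responsive proteins of slow fibres, the HF pools at the 2 times lay farther apart than the Control pools. Both are in the slow fibre list, whose median difference ran from -0.44 at 4 h to 0.52 at 24 h. Csrp3 gave 5432 and 3763 in Control and 5785 and 13288 in HF (1.41 ± 0.18, adjusted p = 2.06e-11), and Ankrd2 gave 4971 and 4266 in Control and 3284 and 8846 in HF (1.22 ± 0.18, adjusted p = 1.95e-08). Slc7a2, a carrier of cationic amino acids, gave 1780 and 5122 in Control and 1567 and 1583 in HF (-1.20 ± 0.18, adjusted p = 1.4e-07), and Glul, glutamine synthetase, 9031 and 14965 in Control and 9773 and 7421 in HF (-1.03 ± 0.18, adjusted p = 1.28e-05). Socs2, a brake on growth hormone signalling, gave 968 and 1637 in Control and 1429 and 733 in HF. Dbp, a clock output gene, gave 2163 and 1176 in Control and 2500.1 and 2754 in HF. In HF+SFC+ALA Slc7a2 climbed from 1553 to 2397. Of the 16 genes 8 have another probe set above the filter, and in 7 of them every such probe set differed in the same direction. Those of Socs2 stood at -0.69, -0.89 and -1.57, while that of Wdr70 stood at 0.12, against -1.26 for the one tested. This fit had 1 residual degree of freedom and took nearly all of its spread from other genes of like signal (871 prior degrees of freedom). No gene passed without the intensity trend (737 at an unadjusted p under 0.05) or without the signal filter (1329), so these values rest on 1 pool of each diet and time.

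**Figure D4:**
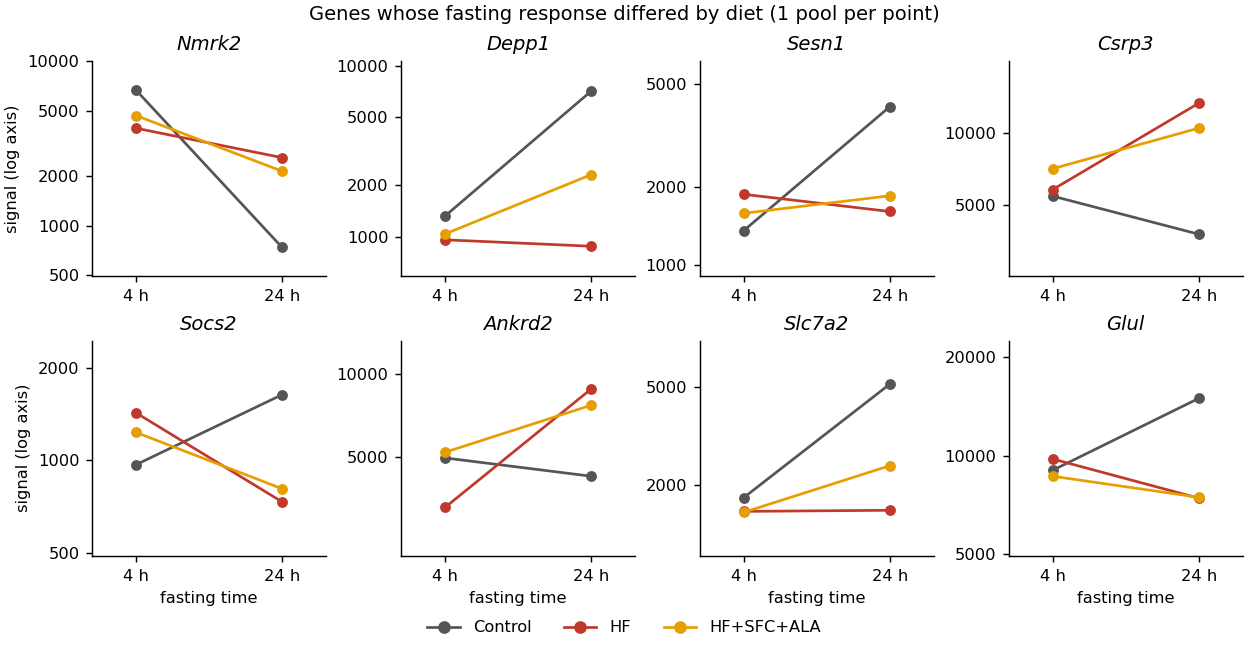
Array signal (log axis) of 8 genes at 4 h and 24 h of fasting by diet (Control, HF, HF+SFC+ALA), 1 pool per point, with lines joining the pools of a diet and no error bar. In Control Nmrk2 drops from 6678 to 741 and Depp1 climbs from 1319 to 7087, while the HF pools stand at 3919 and 2597 and at 958 and 878.

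Of the 110 genes at least 1.5-fold apart in opposite directions, 62 were lower in HF at 4 h and higher at 24 h, and 48 the reverse. The 8 with the largest differences and all 4 pools above the floor were Inpp5d, 5430401H09Rik, Cfi, Sln, Sgsm1, Wnt7a, Kcnf1 and A030001D20Rik. Inpp5d, an inositol phosphatase of blood cells, gave 123 in Control and 42.4 in HF at 4 h, and 45.3 and 154 at 24 h. Sln, sarcolipin, which uncouples the calcium pump of muscle, gave 732 and 307 at 4 h and 301 and 651 at 24 h. Kcnf1, a potassium channel subunit, was higher in HF at 4 h (282 against 135) and lower at 24 h (102 against 253). The other 7 were lower at 4 h and higher at 24 h, and none of the 8 passed for HF against Control.

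How firm the calls are varied between genes. The fits that left out 1 pool are a limited check, since they share their other pools with the main fit. Leaving out an HF+SFC+ALA pool cannot change a gene's difference, only its spread. The fits without Control at 4 h or 24 h took nearly all of their spread from other genes (2277.59 and 640.7 prior degrees of freedom, against 7.27 with all pools). Of the 102 genes, 27 passed in all 6 fits that left out 1 pool (17 that rose and 10 that fell), and in none of those fits did a gene change sign. With the HF pool at 24 h left out 33 of the 102 passed, and with the Control pool at 4 h left out 101. At the threshold of 0.05, the genes just inside were 5031439G07Rik, Itih5 and Car14, with adjusted p of 0.0486 to 0.0495. The genes just outside were Ppt2, Mcf2l and Abhd2, with adjusted p of 0.05 to 0.0537. Of the 52 called genes with another probe set above the filter, all such probe sets moved the same way at both times in 38, some in 7 and none in 7. Only the sign was counted, so probe sets that barely moved are included.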

How the data were processed

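Each of the 6 samples was 1 pool of gastrocnemius RNA on 1 array, grouped by its title. The deposited values are linear intensity; per the submitters' processing notes the authors made them by MAS5. The 2% trimmed mean of each array was near 500, the precision is limited by the number of arrays, and no further scaling was applied. A floor was set at the 30th percentile (26.4) before log2 was taken. Control probe sets were left out. Of 45101 probe sets 34945 carried 1 gene symbol, 932 several and 9160 none, and only the first kind was named. Each of 18193 genes was represented by its probe set of highest mean, and the 11526 genes with a mean log2 signal over 5.88 were tested. The fit was limma 3.58.1 in R 4.3.3 (eBayes with trend) on diet and fasting time over all 6 pools, with 2 residual and 7.27 prior degrees of freedom and Benjamini-Hochberg adjustment. A second fit tested the fasting response of both high-fat diets against Control. Genes were named by a rule (the 15 passing genes in each direction with the largest difference at the fasting time where it is smaller, members of 51 lists, the 8 largest opposite differences by the same measure, and the genes nearest the threshold). The members and lists were chosen with earlier results of these data known. Promoters came from RefSeq on GRCm38.p6. Alternatives were quantile normalization, other filters, floors and probe set rules, no trend, fewer pools and no fasting term. The script was checked on simulated data. A gene that did not pass is not shown to be unchanged.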

Additional observations from a re-analysis of the deposited data

Results flagged for a closer look

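The fasting response differed between the high-fat pools and Control in 16 genes, by a test of the difference itself that held under both normalizations. The values are log2 differences of the 24 h minus 4 h response, high-fat pools (HF and HF+SFC+ALA together) minus Control. Those above 0 were Spats2 at 3.13, 5430401H09Rik at 2.74, Nmrk2 at 2.31, Erdr1 at 1.47, Csrp3 at 1.41, Ankrd2 at 1.22 and Dbp at 1.004. Those below 0 were Numbl at -3.19, Zdhhc12 at -2.83, Depp1 at -1.91, Sesn1 at -1.58, Socs2 at -1.54, Wdr70 at -1.26, Slc7a2 at -1.20, Glul at -1.03 and Hnrnpa1 at -0.96. The Control pool of Numbl at 4 h lay under the floor, so its value depends on that floor. Each value rests on 1 Control pool at each time, and none of the 16 passed in the fit without the intensity trend.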

How the results depend on the processing

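The count of 102 genes that passed for HF against Control fell to 0 without the signal filter, without the trend and without fasting time in the model, to 1 with the mean over probe sets and to 63 with only the 4 Control and HF pools. It ran from 47 to 592 over the fits that left out 1 pool: 592 without Control at 4 h, 275 without HF at 4 h, 58 without HF+SFC+ALA at 4 h, 279 without Control at 24 h, 47 without HF at 24 h and 59 without HF+SFC+ALA at 24 h. Quantile normalization gave 84, the filter at the 65th percentile 124, no floor 99 and a pseudocount 102. Of the 62 named genes that passed, 56 passed after quantile normalization and Acp5, Ppp1r15a, Col8a1, Tagln, Gstm1 and Kpnb1 did not. With the mean over probe sets Sparc turned to -0.27 and Smox to 0.084. The count of 256 genes that differed at least 1.5-fold in 1 direction at both times became 630 without the filter and 109 at the 65th percentile, and it needs all 4 pools, so none was left out. The 102 genes of the fasting response became 16 after quantile normalization and 0 without the filter or the trend. The causes of these shifts were not tested, apart from the number of genes tested under other filters. Pairing by fasting time is part of the model, and the fit without it is the one without fasting time above. No other paired analysis was possible because each diet and fasting time has 1 pool and the labels give no replicate numbers.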

Other observations

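Some lists not described above held single genes that passed. Tagln, an actin-binding protein of smooth muscle, rose by 0.51 ± 0.09 (limma, adjusted p = 0.0457), the only one of 15 smooth muscle and pericyte genes to pass. Of the 15, 9 were higher and 1 lower at both times (29.4% and 30.6% of all genes). Tagln did not pass after quantile normalization (adjusted p = 0.0504) or without the HF pool at 4 h (0.0729) or 24 h (0.154) or the HF+SFC+ALA pool at 4 h (0.0999) or 24 h (0.0963). Kpnb1, which imports proteins into the nucleus, stood at -0.58 at 4 h and -1.34 at 24 h and fell (-0.96 ± 0.17, adjusted p = 0.0383), and Smox, spermine oxidase, fell by 0.44 on the log2 scale (adjusted p = 0.0383). Kpnb1 did not pass after quantile normalization (0.0573), with HF at 24 h left out (0.133) or with HF+SFC+ALA at 4 h (0.0742) or 24 h (0.0748) left out, and its 3 other probe sets differed by only -0.06 to -0.27. Smox did not pass with Control at 4 h (0.0516), HF at 24 h (0.135) or HF+SFC+ALA at 4 h (0.0757) or 24 h (0.0748) left out, and its other probe set stood at -0.12 and 1.34. None of the 20 endothelial, 10 Schwann cell, 19 clock, 20 calcium handling or 32 proteasome genes tested passed. Pllp, plasmolipin of myelin, stood at 1.20 and 1.502 (adjusted p = 0.103), and the clock gene Per1 at -0.25 and -0.78 (adjusted p = 0.169). Of the 32 proteasome subunits 16 were lower at 4 h and 25 at 24 h, beside 5972 and 5693 of all 11526 genes tested.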
